A study of Mus musculus with 15 samples.

Results

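Primary cilium genes were followed in nests of mouse basal cell carcinoma, a skin tumour driven by the Hedgehog pathway. The set holds 47 genes chosen by function: subunits of the intraflagellar transport (IFT) trains, the BBSome, ciliary motors, trafficking proteins, and parts of the transition zone, the basal body and the EvC zone. The rule kept a listed gene when it had at least 10 counts in at least 5 libraries. All 47 passed, each with at least 10 counts in 15 of 15 libraries, and all 47 were among the 17282 genes tested of 36528 listed.

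The mice carried K14Cre-ER, floxed Ptch1 and p53 alleles (Ptch1fl/fl; p53fl/fl) and Lgr5GFP, in every group. K14Cre-ER places an inducible Cre recombinase under the keratin 14 promoter, so deletion is directed to basal epidermis and hair follicle epithelium. Laser capture gave polyadenylated RNA from nests that remained when vismodegib, which blocks Smoothened, had been given for 28 days (5 libraries), from untreated nests negative for the proliferation antigen Ki67 (5 libraries) and from untreated nests positive for it (5 libraries). The vismodegib nests carry no Ki67 label. Because the floxed alleles are common to all 15 libraries, the levels of Ptch1 and Trp53 check no label. Depth was 4887381 to 10328822 counts per library.

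The primary cilium is a single antenna of microtubules that grows from the older centriole of a non-dividing cell and is taken down before division. IFT-B trains pulled by kinesin-II carry cargo to the tip, and IFT-A trains pulled by dynein-2 carry it back. In vertebrates Hedgehog signalling runs through this organelle: Patched leaves the cilium when ligand binds, Smoothened accumulates there, and the Gli factors are processed at its base and tip. In mouse skin, loss of the cilium is known to suppress Hedgehog-driven basal cell carcinoma when the pathway is switched on at the level of Smoothened.

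The libraries are not tied to animals in the labels. Where nests of a group share an animal the p-values are too small, and some of the spread may be technical. Accession numbers of the Ki67-negative libraries come later than the rest and no run or date is given, so a batch and that group cannot be told apart. In these bulk samples, fewer cells of a type and less RNA per cell cannot be told apart either. Keratinocyte markers were present in every library, with Krt14 at 2333, 2272, 2915, 2516 and 3002 CPM (counts scaled to library size) in vismodegib nests, 712, 976, 573, 1046 and 616 CPM in Ki67-negative nests and 1253, 694, 978, 1242 and 771 CPM in Ki67-positive nests. Among 16 listed genes of multiciliated cells, whose motile cilia share IFT proteins with primary cilia, Mcidas and Foxj1 were at or near 0. The 16 together summed to 144 to 162 CPM in vismodegib, 138 to 169 CPM in Ki67-negative and 134 to 179 CPM in Ki67-positive nests. Most of that sum came from Ccdc39. Mcidas, the factor that starts the multiciliated programme, had 0 CPM in all 15 libraries, and Foxj1, the master factor of motile cilia, reached at most 0.633 CPM in vismodegib, 0.151 CPM in Ki67-negative and 0.356 CPM in Ki67-positive nests.

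Levels per unit of gene length spread widely over the set. The deposited nRPKM (RPKM adjusted by a size factor) ordered the members by their mean over 15 libraries, with Ift20 first and Mks1 last. Ift20, an IFT-B subunit that also works at the Golgi apparatus, averaged 21.2 ± 5.45 nRPKM in vismodegib nests, 11.4 ± 1.91 in Ki67-negative nests and 11.9 ± 2.62 in Ki67-positive nests (SD, n = 5 each). Tulp3, the adaptor that brings receptors into the cilium on IFT-A trains, was next at 4.52 ± 1.36 nRPKM in vismodegib nests, 8.07 ± 1.74 in Ki67-negative nests and 6.84 ± 0.566 in Ki67-positive nests. Mks1, a transition zone protein, lay at 0.551 ± 0.0844 nRPKM in vismodegib nests, 1.16 ± 0.455 in Ki67-negative nests and 1.03 ± 0.5297 in Ki67-positive nests. Neighbours in this order mostly overlapped within their SD, as the plot of levels shows.

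**Figure D1:**
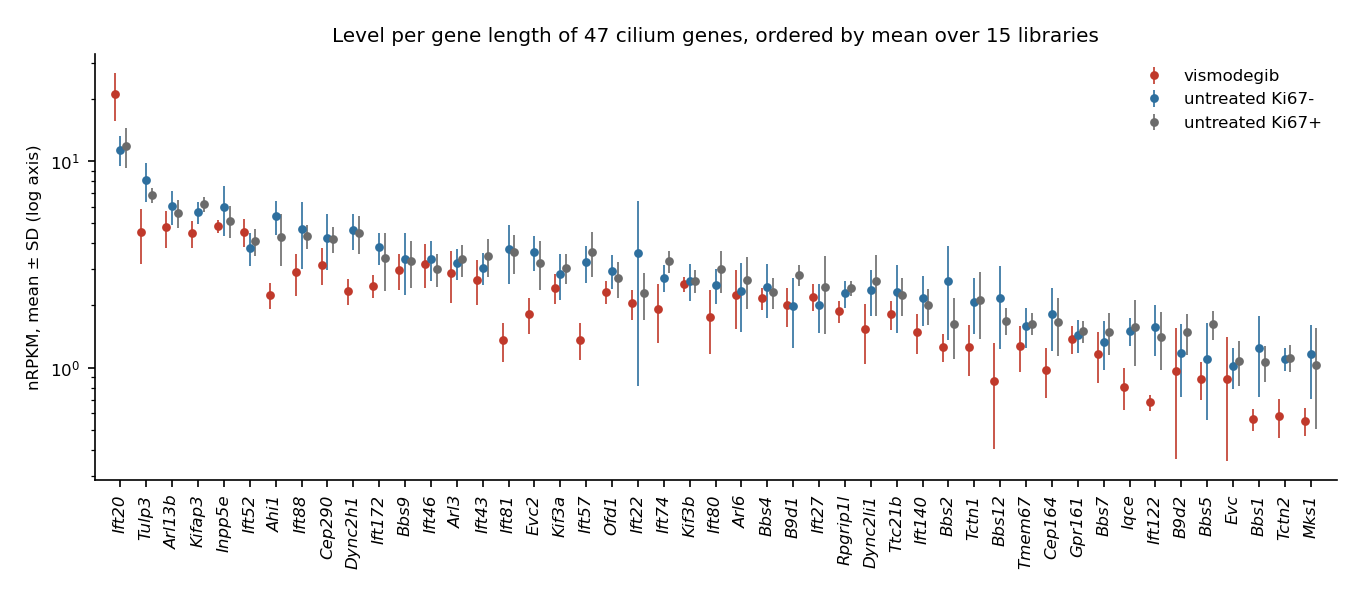
Level per gene length (nRPKM, log axis) of the 47 cilium genes, ordered by their mean over 15 libraries; points are group means and bars are SD over 5 libraries for vismodegib, untreated Ki67-negative and untreated Ki67-positive nests. Ift20 stood above every other member in all 3 groups, and for Ift81, Ift57, Ahi1 and Ift122 the vismodegib point lies below both untreated points.

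Members varied between libraries of a group by a coefficient of variation whose median was 19.99% in vismodegib nests, 24.6% in Ki67-negative nests and 19.96% in Ki67-positive nests. The steadiest member was Inpp5e in vismodegib nests at 7.37%, Kifap3 in Ki67-negative nests at 12.4% and Rpgrip1l in Ki67-positive nests at 7.64%. The most variable was B9d2 in vismodegib nests at 62.8%, Ift22 in Ki67-negative nests at 76.3% and Mks1 in Ki67-positive nests at 50.5%. B9d2 had the lowest counts of the set, 13 to 61 per library.

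Some members share a promoter feature that the choice of genes did not use. Many cilium genes are controlled by RFX factors, which bind the X-box, a palindrome-like motif near the transcription start. The RefSeq promoter table of the assembly GRCm38.p6 (250 bases before to 50 after each start) held 41 of the 47 members. An X-box match on either strand was found in 6 of those 41 (14.6%), against 215 of all 27025 genes in the table (0.796%). These were Ift57, Tctn2, Bbs1, Ahi1, Tctn1 and B9d2. Of the 17 members with a promoter that fell in at least 1 comparison with vismodegib below, 5 held a match, and of the other 24 members 1 did (B9d2). Among the 5, Tctn1 lost its call under 17 of 25 alternative settings against Ki67-negative and 14 of 25 against Ki67-positive nests. Ift80, Ift81, Ift122, Dync2li1, Tmem67 and Iqce had no promoter entry and were not searched. Of these, Ift80, Ift81, Ift122 and Iqce fell in at least 1 comparison. Ift81 had the lowest log2 fold change of the set against Ki67-negative nests (-1.43). Whether a match goes with a fall was not tested. The matches are shown because the members that hold them include several of the largest falls; capitals mark the X-box and each line runs 5′ to 3′ along the gene's own strand.
Ift57, chr16:49699174-49699253, plus strand, upstream of the start: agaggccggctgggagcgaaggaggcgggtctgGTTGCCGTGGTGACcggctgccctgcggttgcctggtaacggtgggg
Tctn2, chr5:124598654-124598733, plus strand, upstream of the start: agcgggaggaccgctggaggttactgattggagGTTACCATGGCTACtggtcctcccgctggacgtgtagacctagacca
Bbs1, chr19:4906605-4906634, minus strand, at the start: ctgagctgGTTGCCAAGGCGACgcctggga
Ahi1, chr10:20952560-20952589, plus strand, after the start: tagtctgaGTTACCTAGGCAACagcggcag
Tctn1, chr5:122264411-122264432, minus strand, after the start: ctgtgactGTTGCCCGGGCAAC
B9d2, chr7:25680788-25680817, plus strand, after the start: aacctgctGTTGCCCCAGCAACagtcgggg
In Ift57 the match began 87 bases and in Tctn2 62 bases before the start, and in the other 4 it lay from 1 to 49 bases after it. The CCAAT box, searched on both strands, was in 27 of the 41 member promoters (65.9%) against 41.1% of all genes. The Gli motif GACCACCCA, searched on both strands, was in 0 of the 41 against 0.289% of all genes, which says only that these letters are not in those windows. A match is a description of the sequence, not a bound site.

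The question put by the design is how nests that remain after Smoothened inhibition differ from untreated nests. Of the 47 members, those that were called were all lower in the vismodegib nests except Ift20. Against Ki67-negative nests 17 of the 47 members fell, 1 rose and 29 were not called, where over all genes tested 16.5% fell and 15.4% rose (edgeR quasi-likelihood test, Benjamini-Hochberg adjusted p under 0.05). Against Ki67-positive nests 18 fell, 1 rose and 28 were not called, where over all genes 13.4% fell and 12.6% rose. The members' median log2 fold change was -0.33 against Ki67-negative and -0.41 against Ki67-positive nests, beside -0.03 over all genes against Ki67-negative and -0.02 against Ki67-positive nests. Both comparisons use the same 5 vismodegib libraries and are therefore not independent.

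All 5 vismodegib libraries lay below all 5 Ki67-negative libraries for 11 members, beside 10.2% of all genes, and above them for 1 member, beside 10.4%. Against Ki67-positive nests the same held below for 13 members, beside 10.1% of all genes, and above for 0 members, beside 10.2%. The sign of the fold change was negative for 43 of 47 members against Ki67-negative and 44 of 47 against Ki67-positive nests, including members that passed no test. Over all genes it was negative for 51.9% against Ki67-negative and 51.5% against Ki67-positive nests. Members measured in the same libraries are not independent, so their signs are not separate observations. The number that fell against Ki67-positive nests was 11 without vismodegib library 5.

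**Figure D2:**
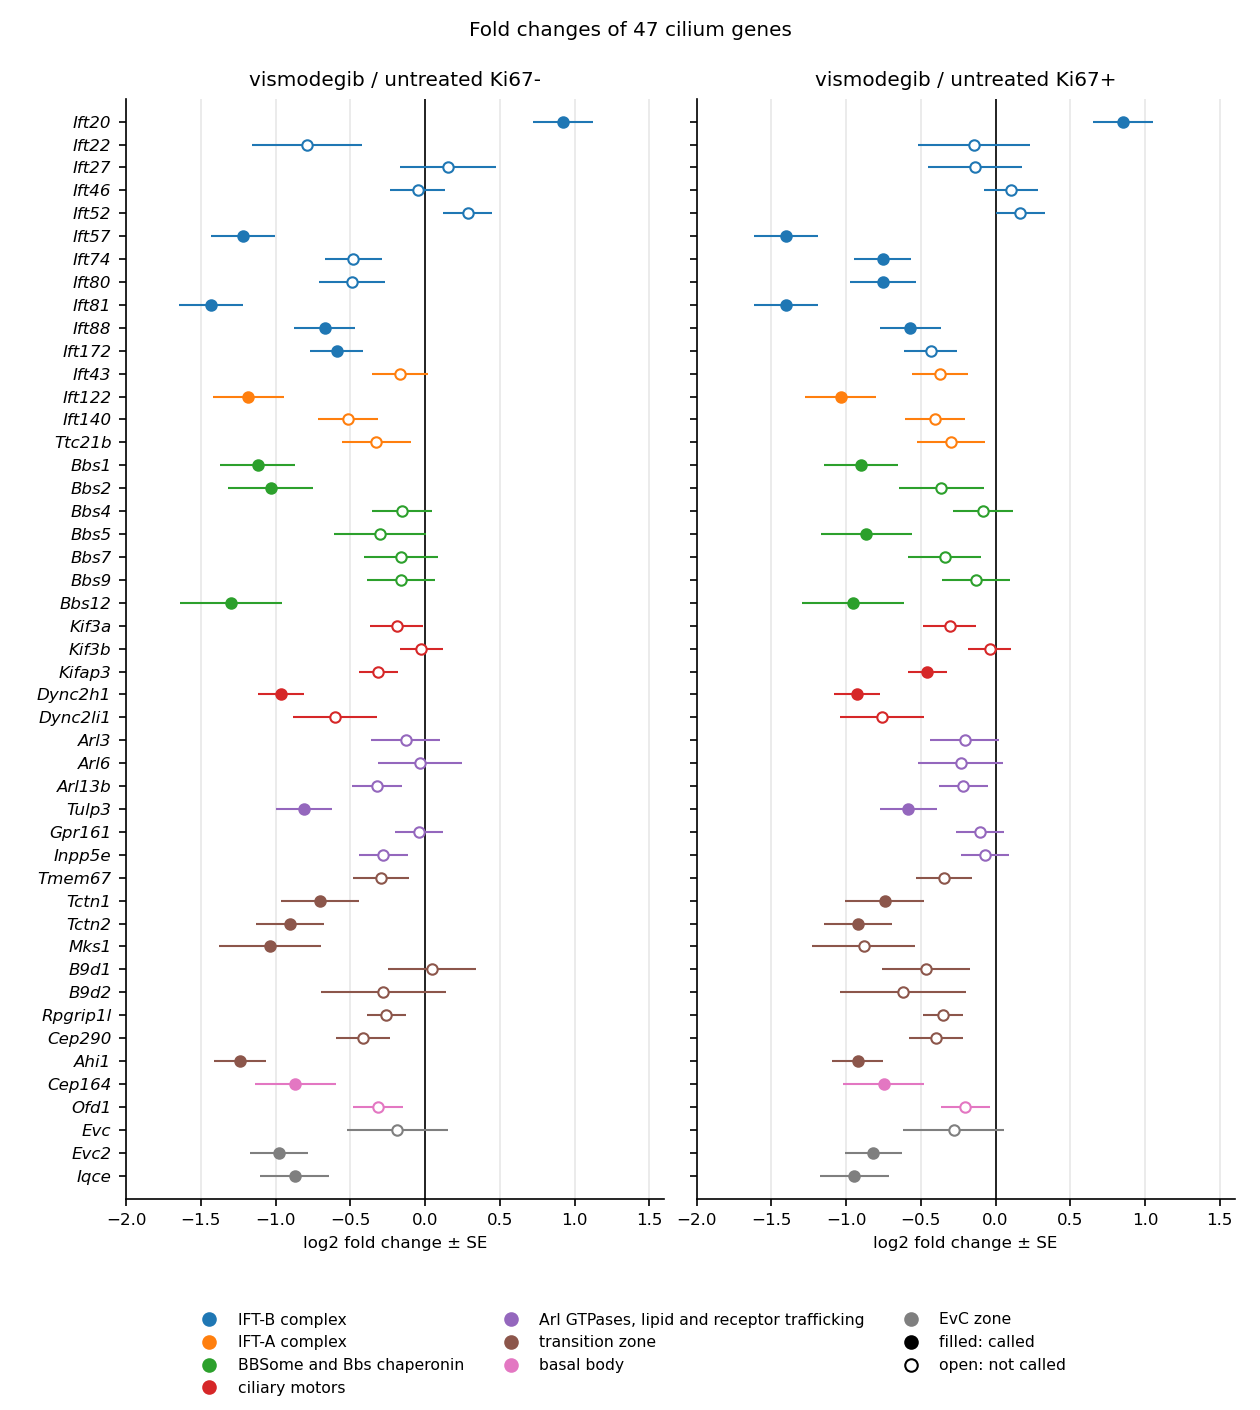
Log2 fold change ± SE of each of the 47 members, coloured by role, for vismodegib over untreated Ki67-negative nests (left) and over untreated Ki67-positive nests (right); filled points were called at an adjusted p under 0.05. Nearly all points lie left of 0, Ift20 is the filled point to the right in both panels, and Ift57 and Ift81 lie furthest left against Ki67-positive nests.

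Averaged over the 47 members, the mean log2 CPM was 4.57 ± 0.11 in vismodegib nests, 5.04 ± 0.17 in Ki67-negative nests and 5.05 ± 0.16 in Ki67-positive nests (SD, n = 5 each). The 5 vismodegib libraries had means of 4.45, 4.71, 4.52, 4.67 and 4.50, and the lowest untreated library stood at 4.75, so the groups did not overlap on this average. The set took 0.143% to 0.169% of a library's counts in vismodegib nests, 0.181% to 0.2501% in Ki67-negative nests and 0.198% to 0.251% in Ki67-positive nests. Ptch1, itself a target of Hedgehog signalling but also the floxed gene, was at 148, 876, 664, 923 and 142 CPM in the same 5 vismodegib libraries, in the same order. Gli1, another gene of the Hedgehog list, was at 28.8, 126, 112, 89.6 and 21.0 CPM in that order. The libraries with the lowest Ptch1, numbers 1 and 5, were also the lowest in the cilium mean. Library 3 had a mean of 4.52 beside 4.50 in library 5, with Ptch1 at 664 against 142 CPM. Its transition zone average, 4.01, was the lowest of the vismodegib libraries. Whether Ptch1 or Gli1 is related to the cilium mean was not tested. By role, the transition zone average lay at 4.12 ± 0.07 in vismodegib nests, against 4.67 ± 0.22 in Ki67-negative and 4.75 ± 0.21 in Ki67-positive nests. The average of the Arl and receptor trafficking members was 5.08 ± 0.15 in vismodegib nests, against 5.35 ± 0.12 in Ki67-negative and 5.33 ± 0.08 in Ki67-positive nests. There the libraries overlapped, as they did in every role except the transition zone.

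**Figure D3:**
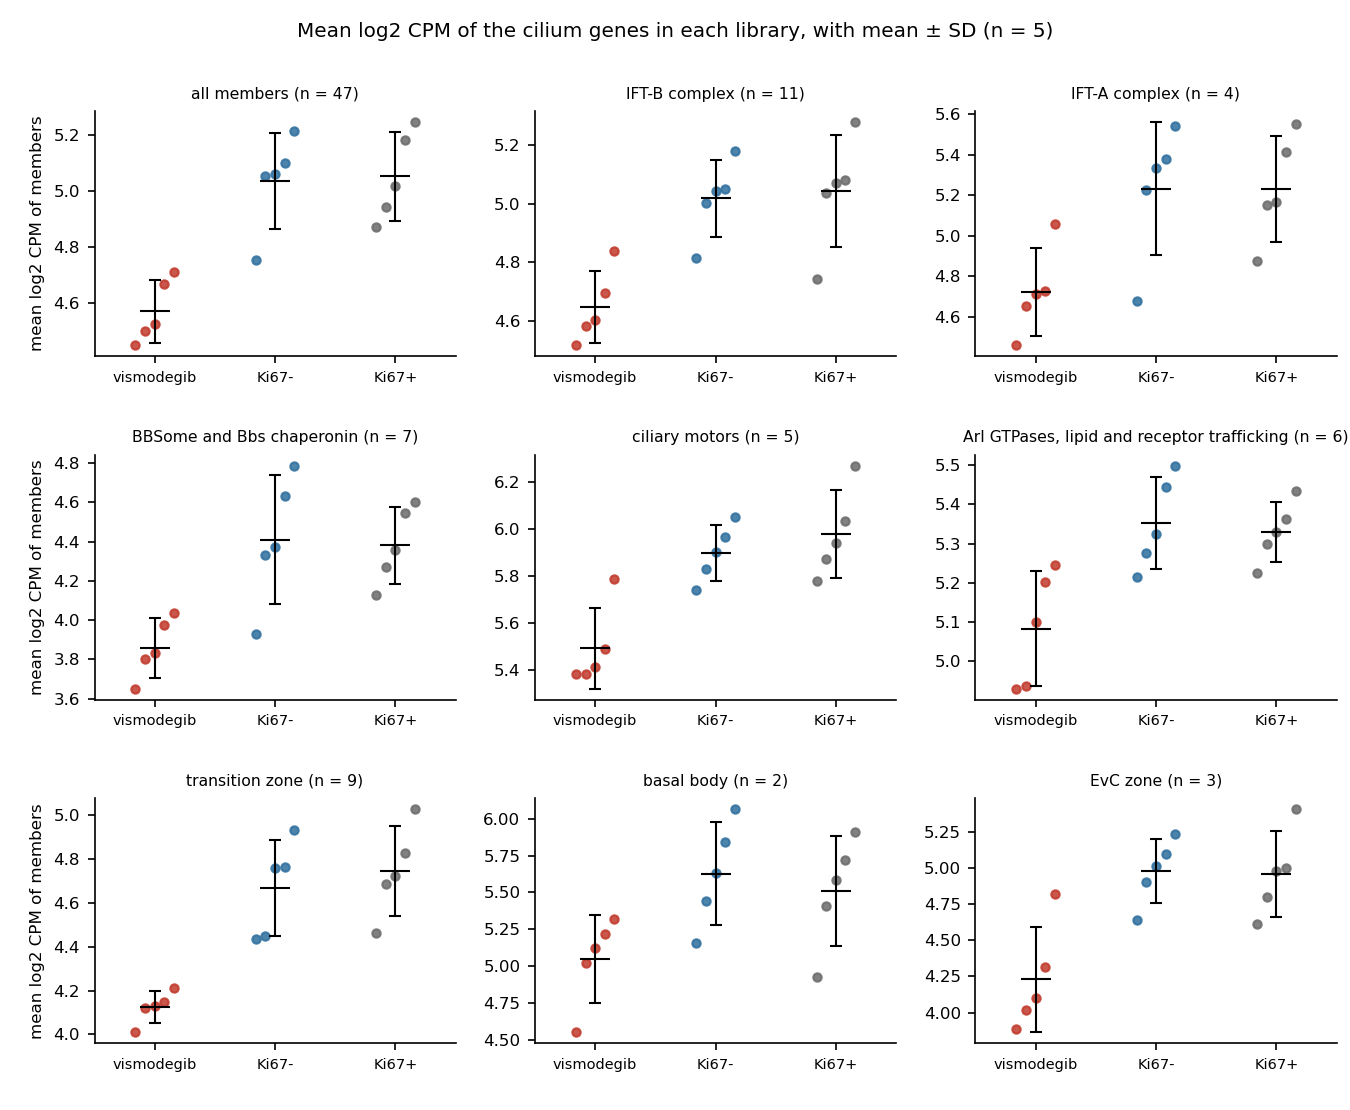
Mean log2 CPM of the members of each role in each library (points), with the group mean and SD over 5 libraries (black), for vismodegib, untreated Ki67-negative and untreated Ki67-positive nests; the vertical axes do not start at 0. Vismodegib libraries lie below all untreated libraries on the average over all members and, among the roles, only for the transition zone. In every other role at least 1 vismodegib library overlaps the untreated ones.

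IFT-B, the complex of outbound trains, held both the largest falls and the only rise. Of its 11 members, 4 fell and 1 rose against Ki67-negative nests, and 5 fell and 1 rose against Ki67-positive nests. Against Ki67-negative nests that is 36.4% lower and 9.09% higher, beside 16.5% and 15.4% of all genes. Against Ki67-positive nests it is 45.5% lower and 9.09% higher, beside 13.4% and 12.6%. The share higher was below that of all genes in both comparisons. Ift81, which with its partner Ift74 binds tubulin as cargo for the growing axoneme, had 12.9, 16.6, 16.1, 20.9 and 13.4 CPM in vismodegib nests, 52.1, 35.3, 62.4, 32.3 and 34.6 CPM in Ki67-negative nests and 42.1, 57.7, 37.4, 38.2 and 36.002 CPM in Ki67-positive nests. Every vismodegib library lay below every untreated library. The log2 fold change of Ift81 was -1.43 ± 0.21 (SE) against Ki67-negative nests (edgeR adjusted p = 7.04e-05) and -1.40 ± 0.21 against Ki67-positive nests (adjusted p = 0.000101).

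Ift57, a peripheral IFT-B subunit whose upstream X-box is printed above, had 10.02, 15.02, 11.97, 15.4 and 10.7 CPM in vismodegib nests, 31.3, 34.3, 33.1, 19.5 and 29.02 CPM in Ki67-negative nests and 20.9, 39.6, 32.6, 33.02 and 41.1 CPM in Ki67-positive nests. The groups did not overlap, the closest untreated libraries being Ki67-negative 4 and Ki67-positive 1. Its log2 fold change was -1.22 ± 0.21 against Ki67-negative nests (edgeR adjusted p = 0.000324) and -1.40 ± 0.21 against Ki67-positive nests (adjusted p = 0.000103).

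Ift20 went the other way. It had 59.2, 41.3, 86.1, 61.3 and 62.1 CPM in vismodegib nests, 39.4, 28.2, 32.3, 37.7 and 26.2 CPM in Ki67-negative nests and 41.8, 23.6, 36.5, 29.8 and 40.5 CPM in Ki67-positive nests. Library 3 was the highest of the vismodegib nests, and library 2, the lowest of them, lay above all Ki67-negative libraries and just below the highest Ki67-positive library. The fitted log2 fold change was 0.92 ± 0.20 against Ki67-negative nests (edgeR adjusted p = 0.00201) and 0.85 ± 0.20 against Ki67-positive nests (adjusted p = 0.00404). In mammalian cells Ift20 stands apart from the other IFT-B proteins in that it also sits at the Golgi, where it sorts membrane cargo for the cilium.

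Ift88, the core subunit whose partial loss in the mouse gave the first link between IFT and polycystic kidneys, had 38.2, 29.9, 24.2, 44.1 and 33.3 CPM in vismodegib nests, 44.5, 43.2, 51.9, 43.6 and 86.8 CPM in Ki67-negative nests and 46.4, 50.5, 47.05, 46.96 and 61.3 CPM in Ki67-positive nests. Vismodegib library 4 overlapped the lower Ki67-negative libraries, and no vismodegib library reached a Ki67-positive one. On the log2 scale the difference was -0.67 ± 0.21 against Ki67-negative nests (edgeR adjusted p = 0.0186) and -0.57 ± 0.21 against Ki67-positive nests (adjusted p = 0.0481); the call against Ki67-positive nests was lost under 17 of 25 alternative settings and that against Ki67-negative nests under 3.

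Ift74, the partner of Ift81, had 21.1, 21.3, 22.6, 35.6 and 16.8 CPM in vismodegib nests, 39.04, 35.3, 29.5, 26.1 and 33.8 CPM in Ki67-negative nests and 38.5, 36.2, 34.3, 44.3 and 45.1 CPM in Ki67-positive nests. Vismodegib library 4 overlapped both untreated groups, and the other 4 lay below all untreated libraries. Ift74 fell against Ki67-positive nests (-0.76 ± 0.19, edgeR adjusted p = 0.00654) and missed the threshold against Ki67-negative nests (-0.48 ± 0.19, adjusted p = 0.0629). Ift80, a peripheral subunit, fell against Ki67-positive nests (-0.75 ± 0.22) and was at -0.49 ± 0.22 against Ki67-negative nests without passing. Ift172, the largest peripheral subunit, fell against Ki67-negative nests (-0.59 ± 0.18) and was at -0.43 ± 0.18 against Ki67-positive nests without passing.

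The other IFT-B members were not called. The small GTPases Ift22 and Ift27 had log2 fold changes of -0.79 and 0.15 against Ki67-negative nests and -0.14 and -0.14 against Ki67-positive nests. The core subunits Ift46 and Ift52 had -0.05 and 0.28 against Ki67-negative nests and 0.10 and 0.16 against Ki67-positive nests. IFT-B therefore spanned the whole range of the set, with subunits of 1 complex at log2 fold changes between -1.43 and 0.92 against Ki67-negative nests.

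**Figure D4:**
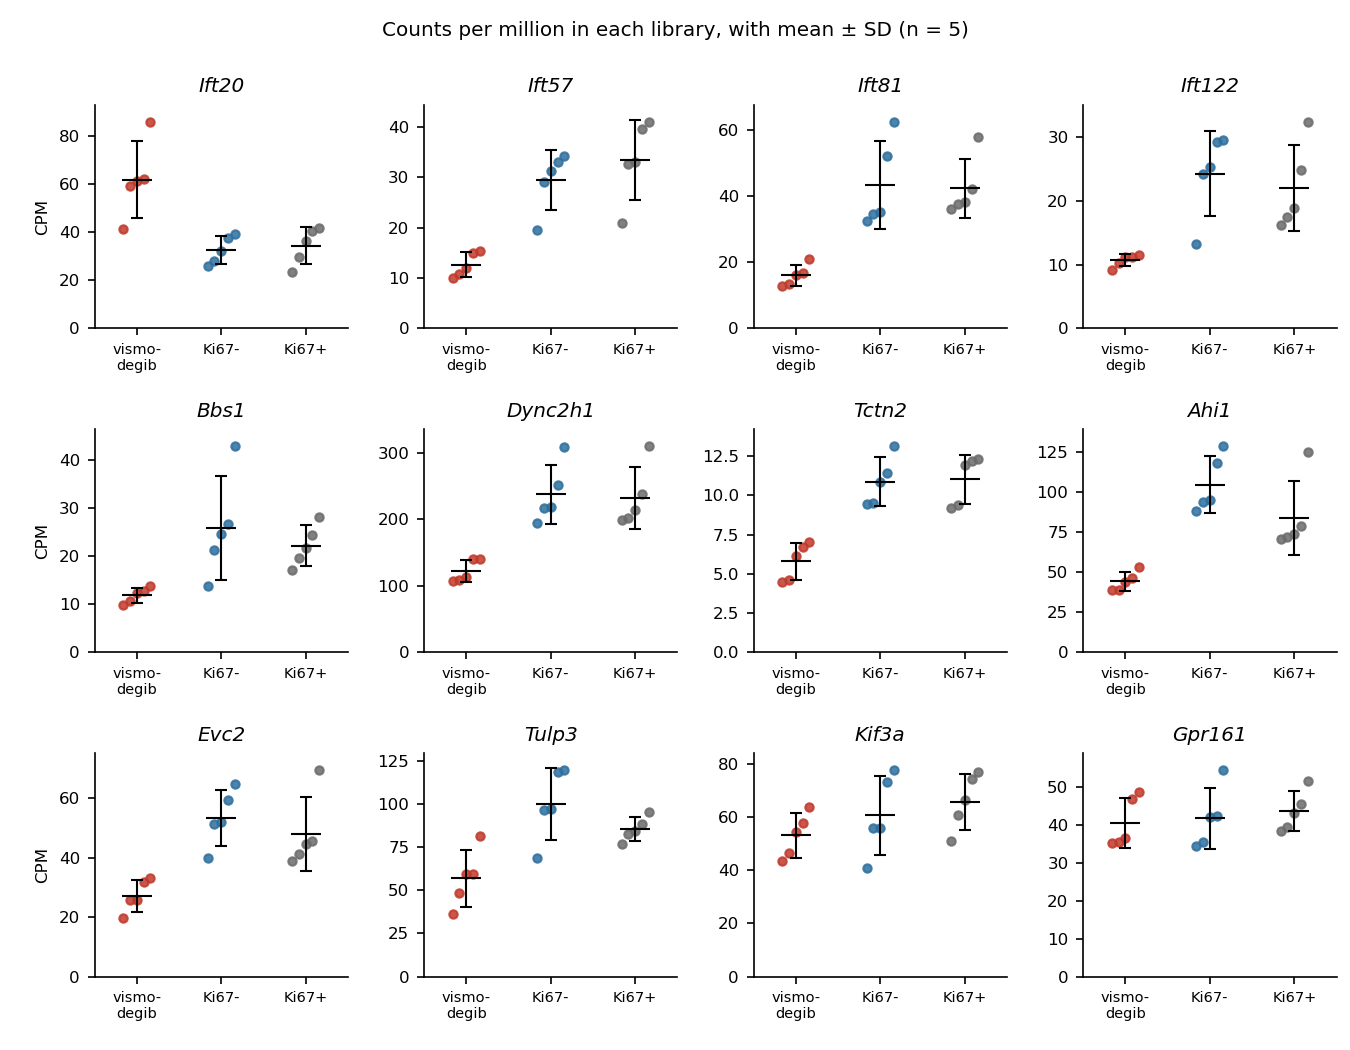
CPM of 12 members in each library (points), with the group mean and SD over 5 libraries (black), for vismodegib, untreated Ki67-negative and untreated Ki67-positive nests; axes start at 0. Vismodegib points of Ift57, Ift81, Ift122, Bbs1, Dync2h1, Tctn2, Ahi1 and Evc2 lie below all untreated points, Ift20 is higher, Tulp3 is lower with 1 library overlapping, and Kif3a and Gpr161 overlap throughout.

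Among the 4 IFT-A members, which return cargo from the tip and carry receptors in, 1 fell in each comparison, and it was Ift122, a core subunit. That is 25% of a small list, beside 16.5% of all genes against Ki67-negative and 13.4% against Ki67-positive nests. Ift122 had 9.25, 11.2, 10.3, 11.2 and 11.5 CPM in vismodegib nests, 29.5, 24.2, 29.3, 13.3 and 25.3 CPM in Ki67-negative nests and 17.5, 32.5, 16.3, 18.9 and 24.9 CPM in Ki67-positive nests. The vismodegib libraries were tightly grouped and all lay below every untreated library. edgeR put the log2 fold change at -1.18 ± 0.24 against Ki67-negative nests (edgeR adjusted p = 0.00108) and -1.04 ± 0.24 against Ki67-positive nests (adjusted p = 0.00334). Ift140, another core subunit, had -0.52 ± 0.20 against Ki67-negative and -0.41 ± 0.20 against Ki67-positive nests, and Ttc21b, known as IFT139 in other organisms, had -0.33 ± 0.23 against Ki67-negative and -0.30 ± 0.23 against Ki67-positive nests. Ift43, a small peripheral subunit, had -0.17 ± 0.19 against Ki67-negative and -0.37 ± 0.19 against Ki67-positive nests, and none of these 3 passed the test in either comparison.

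The BBSome is a coat that moves membrane receptors along the cilium on IFT trains. Of its 7 members, including the chaperonin-like assembly factor Bbs12, 3 fell against Ki67-negative nests (Bbs1, Bbs2 and Bbs12) and 3 against Ki67-positive nests (Bbs1, Bbs5 and Bbs12). Each count is 42.9% of a small list, beside 16.5% of all genes against Ki67-negative and 13.4% against Ki67-positive nests. Bbs1, the subunit that contacts the GTPase Arl6, had 10.6, 12.3, 12.9, 9.97 and 13.8 CPM in vismodegib nests, 21.3, 24.6, 26.7, 13.9 and 43.1 CPM in Ki67-negative nests and 28.3, 24.4, 17.1, 19.7 and 21.8 CPM in Ki67-positive nests. The groups did not overlap, although Ki67-negative library 4 came within a fraction of a CPM of the highest vismodegib library. The difference in log2 units was -1.12 ± 0.25 against Ki67-negative nests (edgeR adjusted p = 0.00238) and -0.90 ± 0.25 against Ki67-positive nests (adjusted p = 0.012).

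Bbs12 averaged 8.61 ± 4.47 CPM in vismodegib nests, 21.3 ± 8.81 CPM in Ki67-negative nests and 16.7 ± 2.45 CPM in Ki67-positive nests (SD, n = 5 each). Its log2 fold change was -1.30 ± 0.34 against Ki67-negative and -0.95 ± 0.34 against Ki67-positive nests, with the call against Ki67-positive nests lost under 16 of 25 alternatives. Bbs2, a core subunit, was at -1.03 ± 0.28 against Ki67-negative nests and, without passing, at -0.36 ± 0.28 against Ki67-positive nests. Bbs5, a lipid-binding subunit, was at -0.86 ± 0.31 against Ki67-positive nests and, without passing, -0.30 ± 0.31 against Ki67-negative nests; its call was lost under 12 of 25 alternatives. Bbs4, Bbs7 and Bbs9 were called in neither comparison, with log2 fold changes between -0.34 and -0.08.

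Among the 5 motor members, the heavy chain of the return motor fell in both comparisons and the motor subunits of the outbound kinesin passed in neither. Dync2h1, the heavy chain of dynein-2, had 113, 141, 109, 139.7 and 108 CPM in vismodegib nests, 217, 251, 308, 194 and 219 CPM in Ki67-negative nests and 198, 310.5, 201, 214 and 237 CPM in Ki67-positive nests. No vismodegib library reached an untreated one. The fitted log2 fold change was -0.96 ± 0.15 against Ki67-negative nests (edgeR adjusted p = 0.000134) and -0.93 ± 0.15 against Ki67-positive nests (adjusted p = 0.00021). Dync2li1, the light intermediate chain of the same motor, was at -0.60 ± 0.28 against Ki67-negative and -0.76 ± 0.28 against Ki67-positive nests and passed in neither.

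Kif3a, a motor subunit of kinesin-II that is often deleted to remove cilia, had 46.2, 54.4, 43.2, 63.8 and 57.8 CPM in vismodegib nests, 55.98, 55.7, 77.7, 72.9 and 40.7 CPM in Ki67-negative nests and 74.3, 76.7, 60.7, 50.7 and 66.1 CPM in Ki67-positive nests. The 3 groups overlapped. On the log2 scale the difference was -0.19 ± 0.18 against Ki67-negative nests (edgeR adjusted p = 0.442) and -0.31 ± 0.18 against Ki67-positive nests (adjusted p = 0.222). Kif3b, its motor partner, had -0.03 ± 0.14 against Ki67-negative and -0.04 ± 0.14 against Ki67-positive nests, among the smallest differences of the set. Kifap3, which links the kinesin to cargo, fell against Ki67-positive nests (-0.46 ± 0.13, adjusted p = 0.0134) and was at -0.31 ± 0.13 against Ki67-negative nests without passing (edgeR adjusted p = 0.0713).

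The 6 members that set the ciliary membrane's contents contained 1 that fell, Tulp3, in each comparison. That share, 16.7%, is near the 16.5% of all genes that fell against Ki67-negative and the 13.4% against Ki67-positive nests. Tulp3 had 36.4, 59.5, 59.5, 81.2 and 48.5 CPM in vismodegib nests, 119.9, 97.2, 119, 68.5 and 96.2 CPM in Ki67-negative nests and 88.6, 95.02, 82.5, 84.4 and 76.7 CPM in Ki67-positive nests. Vismodegib library 4 overlapped the lowest untreated libraries, and the other 4 lay below all of them. edgeR put the log2 fold change at -0.81 ± 0.19 against Ki67-negative nests (edgeR adjusted p = 0.00325) and -0.58 ± 0.19 against Ki67-positive nests (adjusted p = 0.0285); the call against Ki67-positive nests was lost under 6 of 25 alternatives.

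Gpr161, the orphan receptor that Tulp3 brings into the cilium and that restrains Hedgehog signalling there, was called in neither comparison. Gpr161 had 46.9, 48.5, 36.6, 35.5 and 35.2 CPM in vismodegib nests, 34.4, 54.5, 35.3, 42.1 and 42.2 CPM in Ki67-negative nests and 51.6, 38.4, 39.3, 42.96 and 45.5 CPM in Ki67-positive nests. The groups overlapped almost entirely, with a log2 fold change of -0.04 ± 0.16 against Ki67-negative nests (edgeR adjusted p = 0.861) and -0.10 ± 0.16 against Ki67-positive nests (adjusted p = 0.679). The sign of both values turned positive when a trend with gene length was removed.

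Arl13b, the GTPase commonly stained to mark cilia, had 56.4, 82.5, 49.2, 63.8 and 58.5 CPM in vismodegib nests, 69.9, 81.2, 67.9, 103 and 65.5 CPM in Ki67-negative nests and 73.9, 73.5, 65.1, 59.99 and 87.98 CPM in Ki67-positive nests. The groups overlapped, with vismodegib library 2 among the higher values. The difference in log2 units was -0.32 ± 0.17 against Ki67-negative nests (edgeR adjusted p = 0.149) and -0.21 ± 0.17 against Ki67-positive nests (adjusted p = 0.369). Inpp5e, the phosphatase that Arl13b holds in the cilium, had -0.28 against Ki67-negative and -0.07 against Ki67-positive nests. Arl3, which releases lipid-bound cargo, had -0.13 against Ki67-negative and -0.21 against Ki67-positive nests, and Arl6, which recruits the BBSome to membranes, had -0.03 against Ki67-negative and -0.23 against Ki67-positive nests, with none called.

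The transition zone is the gate between the basal body and the cilium. Of its 9 members, 4 fell against Ki67-negative nests (Ahi1, Tctn1, Tctn2 and Mks1) and 3 against Ki67-positive nests (Ahi1, Tctn1 and Tctn2). These shares of a small list are 44.4% against Ki67-negative nests, beside 16.5% of all genes, and 33.3% against Ki67-positive nests, beside 13.4%. Ahi1, a gate protein mutated in human Joubert syndrome, had 44.1, 46.5, 38.7, 53.5 and 39.03 CPM in vismodegib nests, 95.02, 93.6, 118, 88.02 and 129 CPM in Ki67-negative nests and 70.6, 125, 78.6, 74.04 and 72.2 CPM in Ki67-positive nests. Every vismodegib library lay below every untreated one. Its log2 fold change was -1.24 ± 0.17 against Ki67-negative nests (edgeR adjusted p = 3.91e-05), the smallest adjusted p of the 47 members in either vismodegib comparison, and -0.92 ± 0.17 against Ki67-positive nests (adjusted p = 0.000653).

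Tctn2, a tectonic of the gate's MKS module, had 4.47, 4.59, 6.73, 7.05 and 6.16 CPM in vismodegib nests, 11.5, 13.2, 9.49, 10.9 and 9.42 CPM in Ki67-negative nests and 9.21, 12.2, 9.39, 12.3 and 11.9 CPM in Ki67-positive nests. The groups did not overlap although the level was low. The fitted log2 fold change was -0.90 ± 0.23 against Ki67-negative nests (edgeR adjusted p = 0.00585) and -0.92 ± 0.23 against Ki67-positive nests (adjusted p = 0.00586). Tctn1, a related tectonic, had -0.70 ± 0.26 against Ki67-negative and -0.74 ± 0.26 against Ki67-positive nests, with the call lost under 17 of 25 alternatives in the comparison with Ki67-negative and 14 of 25 in that with Ki67-positive nests. Mks1, of the same module, had -1.04 ± 0.34 against Ki67-negative nests, lost under 7 of 25 alternatives, and -0.88 ± 0.34 against Ki67-positive nests without passing.

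Rpgrip1l, a scaffold of the gate, had 44.5, 48.4, 43.6, 56.8 and 53.8 CPM in vismodegib nests, 62.9, 54.4, 68.9, 47.9 and 61.8 CPM in Ki67-negative nests and 58.7, 69.9, 62.4, 58.8 and 65.9 CPM in Ki67-positive nests. All vismodegib libraries lay below all Ki67-positive ones and overlapped the Ki67-negative ones. On the log2 scale the difference was -0.35 ± 0.13 against Ki67-positive nests, where it missed the threshold (edgeR adjusted p = 0.0577), and -0.26 ± 0.13 against Ki67-negative nests (adjusted p = 0.146). Cep290, the long linker between microtubules and membrane, had -0.41 against Ki67-negative and -0.40 against Ki67-positive nests, and the receptor-like Tmem67 had -0.29 against Ki67-negative and -0.34 against Ki67-positive nests. The B9-domain proteins B9d1 and B9d2 had 0.04 and -0.28 against Ki67-negative and -0.47 and -0.62 against Ki67-positive nests; none of these 4 was called.

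At the basal body, Cep164, a distal appendage protein needed to dock the centriole to the membrane, fell in both comparisons. It averaged 27.7 ± 7.63 CPM in vismodegib nests, 50.6 ± 16.3 CPM in Ki67-negative nests and 46.5 ± 14.4 CPM in Ki67-positive nests (SD, n = 5 each). edgeR put the log2 fold change at -0.87 ± 0.27 against Ki67-negative and -0.75 ± 0.27 against Ki67-positive nests, with the call lost under 4 of 25 alternatives against Ki67-negative and 16 of 25 against Ki67-positive nests. Ofd1, which caps the distal centriole, had -0.31 ± 0.16 against Ki67-negative and -0.20 ± 0.16 against Ki67-positive nests and was not called.

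The EvC zone lies just above the transition zone and passes the signal on from active Smoothened. Of its 3 members Evc2 and Iqce fell in both comparisons. That is 66.7% of a list of 3, beside 16.5% of all genes against Ki67-negative and 13.4% against Ki67-positive nests. Evc2, a membrane protein that binds Smoothened, had 19.6, 33.05, 25.7, 25.9 and 31.7 CPM in vismodegib nests, 51.9, 51.4, 59.4, 39.9 and 64.8 CPM in Ki67-negative nests and 44.5, 69.6, 38.8, 45.5 and 41.1 CPM in Ki67-positive nests. No vismodegib library reached an untreated one. The difference in log2 units was -0.98 ± 0.19 against Ki67-negative nests (edgeR adjusted p = 0.000875) and -0.82 ± 0.19 against Ki67-positive nests (adjusted p = 0.00392).

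Iqce, which anchors Evc and Evc2 in the zone, had 15.6, 19.4, 17.1, 9.97 and 18.99 CPM in vismodegib nests, 29.7, 33.9, 32.3, 22.5 and 29.9 CPM in Ki67-negative nests and 31.5, 49.2, 20.6, 27.8 and 27.1 CPM in Ki67-positive nests. The groups did not overlap, vismodegib library 4 being the lowest. Its log2 fold change was -0.87 ± 0.23 against Ki67-negative nests (edgeR adjusted p = 0.00805) and -0.94 ± 0.23 against Ki67-positive nests (adjusted p = 0.00536). Evc, the partner of Evc2, ranged over 4.98 to 33.8 CPM in vismodegib nests, 16.8 to 26.9 CPM in Ki67-negative nests and 14.9 to 27.3 CPM in Ki67-positive nests. The groups overlapped, at log2 fold changes of -0.18 ± 0.34 against Ki67-negative and -0.28 ± 0.34 against Ki67-positive nests, and Evc was not called.

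Between untreated nests, the cilium genes showed no call by Ki67 status. The design separates Ki67-negative from Ki67-positive nests, and cilia are taken down in dividing cells. In the Ki67-negative minus Ki67-positive comparison 0 members were called higher and 0 lower, where over all genes 0% were higher and 0.174% lower. Only Bbs2 had an unadjusted p under 0.05, at 0.67 ± 0.28 (edgeR adjusted p = 0.703). Members' log2 fold changes ran from -0.56 (Bbs5) to 0.67 (Bbs2) with a median of -0.01, and 24 of 47 were negative. DESeq2 and limma voom also called 0. The nests themselves differed in proliferation genes, 6 of 20 cell cycle markers being called lower in Ki67-negative nests. Those calls were lost in a fit on the untreated nests alone, and without Ki67-negative library 3, 4 or 5 or Ki67-positive library 4, where 0 of all genes were called lower, against 30 with every library. A miss of the threshold does not show that the groups have equal levels: for Dync2h1, one of the more precise members, the difference was 0.03 ± 0.15, and for Bbs12 it was 0.34 ± 0.34.

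Genes of the same machinery outside the 47 were read from lists of 74 further cilium genes, of which 69 were tested. Against Ki67-negative nests 26 fell (37.7%) and 4 rose (5.80%), where over all genes 16.5% fell and 15.4% rose. Against Ki67-positive nests 30 fell (43.5%) and 2 rose (2.90%), where over all genes 13.4% fell and 12.6% rose. The median log2 fold change was -0.40 against Ki67-negative and -0.46 against Ki67-positive nests. Other IFT subunits fell in 4 of 8 cases in each comparison, among them Wdr35, an IFT-A subunit (-0.87 ± 0.17 against Ki67-negative and -1.08 ± 0.17 against Ki67-positive nests). Of 13 other transition zone genes 6 fell against Ki67-negative and 7 against Ki67-positive nests, with Tctn3, another tectonic (-0.80 ± 0.21 against Ki67-negative and -0.96 ± 0.21 against Ki67-positive nests), Nek8 (-1.39 ± 0.25 against Ki67-negative and -1.09 ± 0.25 against Ki67-positive nests) and Invs (-0.75 ± 0.15 against Ki67-negative and -0.66 ± 0.15 against Ki67-positive nests), the kinase and scaffold of the Inversin compartment, among them. The 5 remaining Bbs genes gave 0 falls in either comparison and 1 rise against Ki67-negative nests.

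**Figure D5:**
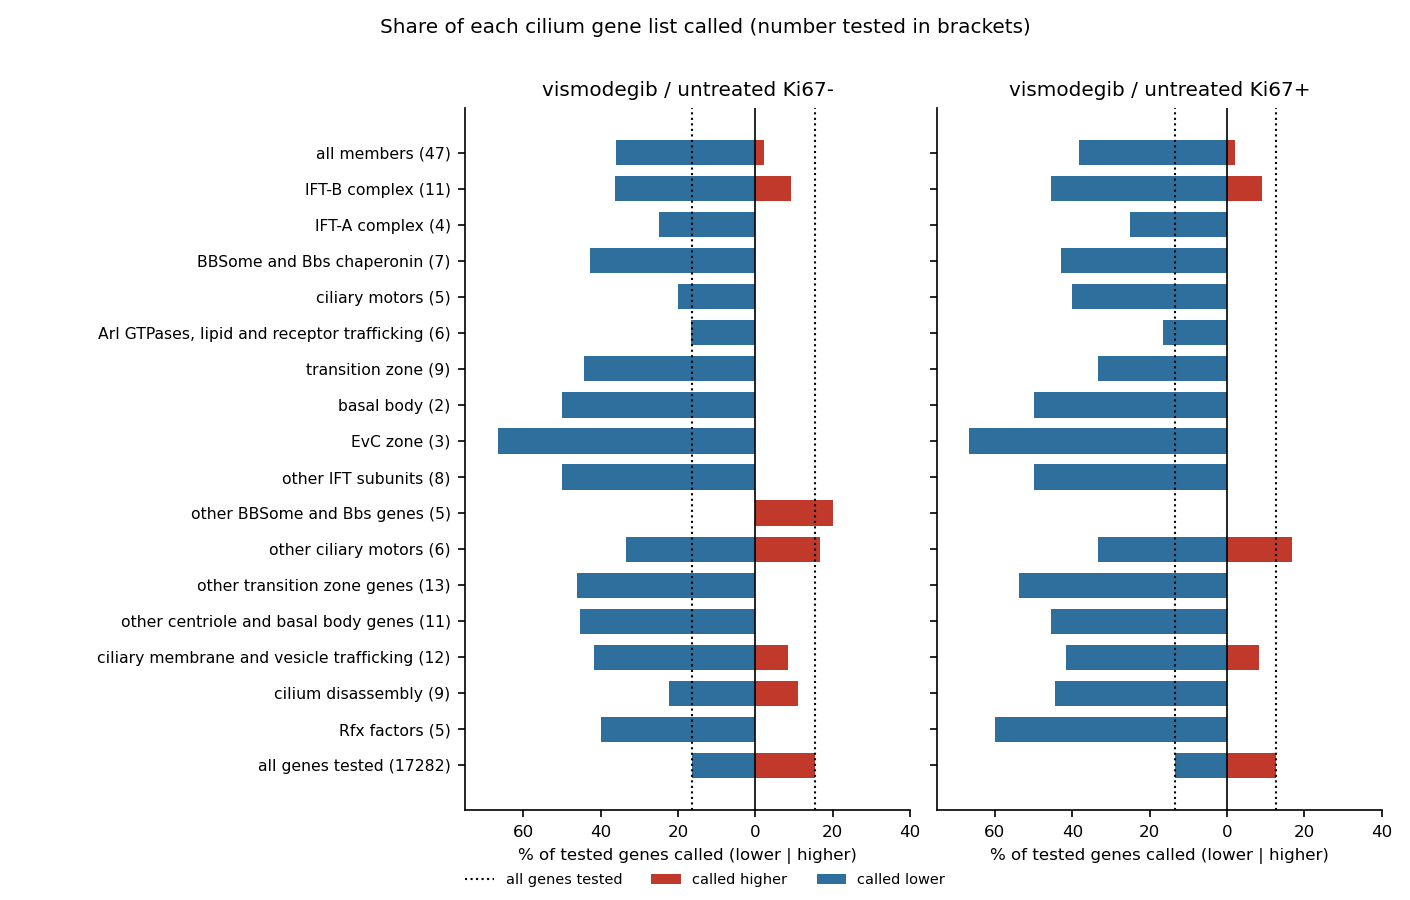
Percent of the tested genes of each cilium gene list that were called lower (bars to the left) or higher (bars to the right), for vismodegib over untreated Ki67-negative (left panel) and over untreated Ki67-positive nests (right panel); dotted lines mark the shares over all genes tested, 16.5% and 13.4% lower. Most lists lie beyond the dotted line on the lower side, and the remaining Bbs genes gave no call there; several lists hold few genes.

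Some centriole and disassembly genes were called as well. Of 11 other centriole and basal body genes 5 fell in each comparison. That is 45.5%, beside 16.5% of all genes against Ki67-negative and 13.4% against Ki67-positive nests. Ccp110, which caps the older centriole and must leave it before a cilium grows, averaged 26.96 ± 4.12 CPM in vismodegib nests, 73.5 ± 25.4 CPM in Ki67-negative nests and 69.8 ± 10.99 CPM in Ki67-positive nests, with log2 fold changes of -1.45 ± 0.20 against Ki67-negative and -1.37 ± 0.20 against Ki67-positive nests. Sclt1, a distal appendage protein, had -1.01 ± 0.18 against Ki67-negative and -1.10 ± 0.18 against Ki67-positive nests. Among 9 disassembly genes 2 fell and 1 rose against Ki67-negative nests, with a median log2 fold change of -0.12. The share lower there was 22.2%, beside 16.5% of all genes, and 3 of the 9 had a positive fold change. Against Ki67-positive nests 4 fell, 44.4% beside 13.4% of all genes, with a median of -0.62. Nedd9, the scaffold that activates Aurora A when cilia are resorbed, averaged 65.3 ± 20.4 CPM in vismodegib nests, 309 ± 52.2 CPM in Ki67-negative nests and 241 ± 34.1 CPM in Ki67-positive nests. Its log2 fold changes of -2.24 ± 0.21 against Ki67-negative and -1.88 ± 0.21 against Ki67-positive nests were larger than those of any of the 47 members. Ccp110 and Nedd9 are named for their small adjusted p and do not stand for their lists.

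The few further cilium genes that rose were chosen for naming after their values were seen. By log2 fold change, Rab11a, a GTPase of recycling vesicles that feed early ciliogenesis, was at 0.85 ± 0.21 against Ki67-negative and 0.64 ± 0.21 against Ki67-positive nests, and its vismodegib libraries lay above all untreated ones. Dynlrb1, a light chain shared by dynein motors, was at 0.48 ± 0.16 against Ki67-negative and 0.61 ± 0.16 against Ki67-positive nests. Mkks, a chaperonin-like protein of BBSome assembly, rose against Ki67-negative nests (0.53 ± 0.19) and was at 0.31 ± 0.19 against Ki67-positive nests without passing. Nek2, a centrosomal kinase of the cell cycle, rose against Ki67-negative nests (1.54 ± 0.53) and was at -0.01 ± 0.50 against Ki67-positive nests without passing.

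Of the other motors, 2 of 6 fell and 1 rose in each comparison. Over all genes 16.5% fell and 15.4% rose against Ki67-negative nests, and 13.4% fell and 12.6% rose against Ki67-positive nests. The rise among these motors, 16.7% of a small list, is near the shares of all genes that rose. Kif7, the kinesin that organises the ciliary tip and regulates Gli factors, averaged 14.4 ± 4.898 CPM in vismodegib nests, 47.5 ± 20.3 CPM in Ki67-negative nests and 61.8 ± 19.9 CPM in Ki67-positive nests, at -1.71 ± 0.33 against Ki67-negative and -2.09 ± 0.33 against Ki67-positive nests. Of 12 membrane and vesicle trafficking genes 5 fell and 1 rose in each comparison, with Pkd1, the ciliary polycystin, at -0.96 ± 0.18 against Ki67-negative and -0.67 ± 0.18 against Ki67-positive nests. Of the 5 Rfx factors tested, 2 fell against Ki67-negative and 3 against Ki67-positive nests. Rfx3, an X-box-binding factor of ciliogenesis, averaged 68.98 ± 11.5 CPM in vismodegib nests, 139.7 ± 25.7 CPM in Ki67-negative nests and 131 ± 20.9 CPM in Ki67-positive nests. The fitted log2 fold change was -1.02 ± 0.16 against Ki67-negative nests (edgeR adjusted p = 9.88e-05) and -0.93 ± 0.16 against Ki67-positive nests (adjusted p = 0.000258); whether this bears on the members with an X-box was not tested.

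Some fibroblast, pericyte and melanocyte markers were also lower in the vismodegib nests, and their part in the cilium results was not tested. The summed level of 10 fibroblast markers was 451 to 3683 CPM in vismodegib nests, 2685 to 4966 CPM in Ki67-negative nests and 1781 to 6172 CPM in Ki67-positive nests, with 4 of 10 markers called lower in each comparison. With the mean log2 CPM of the 10 markers (the fibroblast score) as a covariate, 16 members fell and 1 rose against Ki67-negative nests. Against Ki67-positive nests 14 fell and 1 rose in that fit. The summed level of 6 pericyte markers was 85.8 to 131 CPM in vismodegib nests, 601 to 934 CPM in Ki67-negative and 501 to 893 CPM in Ki67-positive nests, with 4 of 6 lower in each comparison. Melanocyte markers summed to 98.04 to 401 CPM in vismodegib, 181 to 1191 CPM in Ki67-negative and 335 to 1521 CPM in Ki67-positive nests, with 3 of 6 lower and 1 higher (Mitf, 0.63 on the log2 scale) against Ki67-negative nests, and 4 of 6 lower against Ki67-positive nests.

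Differentiating epidermis was higher after vismodegib. Its 11 markers summed to 4339 to 6048 CPM in vismodegib nests, 262 to 922 CPM in Ki67-negative nests and 338 to 1031 CPM in Ki67-positive nests, with 11 called higher against Ki67-negative and 10 against Ki67-positive nests. The 10 basal keratinocyte markers summed to 13404 to 17016 CPM in vismodegib, 6185 to 9794 CPM in Ki67-negative and 8132 to 9548 CPM in Ki67-positive nests, with 5 higher in each comparison, 1 lower against Ki67-negative and 2 lower against Ki67-positive nests. Dendritic and Langerhans cell markers summed to 714 to 2346 CPM in vismodegib, 134 to 465 CPM in Ki67-negative and 100.03 to 481 CPM in Ki67-positive nests, with 5 of 7 higher against Ki67-negative and 7 of 7 against Ki67-positive nests. T cell markers summed to 33.8 to 99.4 CPM in vismodegib, 7.099 to 44.4 CPM in Ki67-negative and 10.9 to 33.01 CPM in Ki67-positive nests, with 4 of 5 higher in each, and macrophage markers to 79.2 to 262 CPM in vismodegib, 61.95 to 196 CPM in Ki67-negative and 33.98 to 128 CPM in Ki67-positive nests, with 1 of 6 higher in each. Endothelial markers were at 20.7 to 49.02 CPM in vismodegib, 12.6 to 81.98 CPM in Ki67-negative and 14.02 to 57.6 CPM in Ki67-positive nests, and the groups overlapped. The 20 cell cycle markers summed to 1309 to 1911 CPM in vismodegib nests, 553 to 1097 CPM in Ki67-negative nests and 1497 to 2784 CPM in Ki67-positive nests, with 13 higher against Ki67-negative and 2 lower against Ki67-positive nests. Hedgehog genes summed to 415 to 1469 CPM in vismodegib, 3468 to 5900.4 CPM in Ki67-negative and 3811 to 6219 CPM in Ki67-positive nests, with 7 of 8 lower in each comparison. Ptch1, whose alleles are floxed, was a large part of that sum in untreated nests. It had 2053 to 3727 CPM in Ki67-negative and 2446 to 3758 CPM in Ki67-positive nests. The 16 motile cilium genes summed to 144 to 162 CPM in vismodegib, 138 to 169 CPM in Ki67-negative and 134 to 179 CPM in Ki67-positive nests, most of it from Ccdc39, and of the 3 that could be tested 1 was higher (Dnah11, 1.51) and 1 lower (Ccdc40, -3.22) by log2 fold change against Ki67-negative nests.

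Sex-linked transcripts were spread unevenly over the groups. Xist, the RNA of the inactive X, exceeded the Y-linked Ddx3y in 3 of 5 vismodegib libraries, 1 of 5 Ki67-negative libraries and 1 of 5 Ki67-positive libraries. With that status as a covariate 19 members were called lower against Ki67-negative and 15 against Ki67-positive nests. The calls of Mks1 and Tctn1 against Ki67-negative nests and of Bbs5, Tctn1 and Tulp3 against Ki67-positive nests were lost in that fit.

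Gene length moved with the calls over the whole transcriptome. Against Ki67-negative nests 9.81% of the 5761 shortest genes fell, 15.7% of the 5761 middle ones and 24.03% of the 5760 longest, by the length behind the deposited RPKM. The members that fell were 0 of 8, 10 of 19 and 7 of 20 in these classes. Against Ki67-positive nests the shares over all genes were 7.38%, 12.98% and 19.8%, and the members that fell 0 of 8, 11 of 19 and 7 of 20. Ift20 is in the shortest class. With the length trend removed from the fold changes, 16 members fell and 1 rose against Ki67-negative nests, and 15 fell and 1 rose against Ki67-positive nests. The spans of 17 members overlap another listed gene, among them Dync2h1 with Dcun1d5, Ift122 with Mbd4, Ift57 with Gm15518, Tctn1 with Hvcn1 and Gpr161 with Tiprl, and without strand the reads over such stretches cannot be told apart.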

How the data were processed

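Polyadenylated RNA from 15 laser-captured nest samples (5 per group) was analysed as deposited. Reads were aligned with GSNAP to GRCm38, per the submitters' processing notes; not given in the sources used here are whether strand was used, the annotation release and GSNAP's version. Per the file headers, the deposited counts are uniquely aligned reads in a gene model. The deposited RPKM values (nRPKM), which the authors adjusted with size factors, equalled the count times a constant per gene and library within 5.77e-15 and were used only for levels per length. Of 36528 identifiers 31049 (85.0%) matched a symbol. Counts of paired libraries within a group gave a chi-square of 13.2 to 43.3 per degree of freedom, far above sampling noise, and none was taken as a duplicate.

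Counts were tested with the edgeR 4.0.16 quasi-likelihood F test (R 4.3.3) over all 15 libraries, with TMM scaling (factors 0.937 to 1.05), filterByExpr (minimum count 10, minimum total 15), 17282 genes, 12 residual degrees of freedom and common biological coefficient of variation 0.348. Tests were two-sided, with Benjamini-Hochberg adjustment over all genes tested and a threshold of 0.05. The procedure was checked on simulated data. CPM used TMM library sizes, and log2 CPM a prior count of 2; each SE was taken as the absolute log2 fold change divided by the root of F. Groups were taken from the treatment labels; replicate numbers follow accession order and pair nothing. DESeq2 1.42.0, limma 3.58.1 (voom) and other settings were alternatives. The members, marker lists and further cilium lists were chosen with earlier results of these data known; of 234 list entries 231 were in the files. Library values are given for called members (at most 12, by smallest adjusted p) and for Ift88, Kif3a, Dync2h1, Arl13b, Tulp3, Gpr161, Evc2 and Rpgrip1l. By rule, at most 10 further cilium genes with the smallest adjusted p are named. Outside that rule Rab11a, Dynlrb1, Mkks and Nek2 are named, chosen after their values were seen because they rose in at least 1 comparison. Promoter sequences and coordinates are RefSeq, GRCm38.p6, counted from 1.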

Additional observations from a re-analysis of the deposited data

Results flagged for a closer look

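In 14 of 141 groups of 5 libraries (47 members in 3 groups), 1 library lay far from the other 4 in CPM. The measure was its gap to the nearest library as a share of the range. That rule flags about 1 of 20 groups when values are independent and normally distributed. CPM need not be so distributed, and members measured in 1 library are not independent, so the count cannot be set against chance. Every such library was the highest of its group. Their causes were not tested.

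Ki67-negative library 5 stood apart for 4 members. It had 27.5 CPM of Ift22 (the other 4 at 5.65 to 10.3), 73.2 CPM of Ift46 (46.8 to 51.0), 86.8 CPM of Ift88 (43.2 to 51.9) and 136 CPM of Inpp5e (74.1 to 89.3). Ki67-negative library 3 had 14.5 CPM of Arl3 (10.2 to 11.1).

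Ki67-positive library 2 stood apart for 3 members, with 57.7 CPM of Ift81 (the other 4 at 36.0 to 42.1), 125 CPM of Ahi1 (70.6 to 78.6) and 69.6 CPM of Evc2 (38.8 to 45.5). Ki67-positive library 5 had 62.7 CPM of Ift46 (42.8 to 46.1) and 61.3 CPM of Ift88 (46.4 to 50.5).

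Among vismodegib nests, library 2 had 54.1 CPM of Ift43 (the other 4 at 30.4 to 37.2), library 4 had 11.4 CPM of Dync2li1 (5.63 to 7.27), library 3 had 15.6 CPM of Arl3 (8.63 to 9.56) and library 5 had 87.0 CPM of Inpp5e (73.2 to 75.8).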

How the results depend on the processing

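Over 25 alternatives (scaling, filter, DESeq2, limma voom, fits on the groups compared, terms for Xist above Ddx3y, a fibroblast score and gene length, and each of 15 libraries left out), Ift20 was the 1 member called higher in both vismodegib comparisons each time. The Xist, fibroblast and length settings address sample differences; the fibroblast and length ones were chosen after seeing the data. Members called lower numbered 15 to 20 against Ki67-negative nests over the 10 settings that keep every library and 13 to 19 with 1 library left out. Against Ki67-positive nests they numbered 14 to 21 and 11 to 19, the lowest, 11, being without vismodegib library 5. In the Ki67-negative against Ki67-positive comparison members called higher and lower were 0 each time. Called under all 25 were 12 of 18 members against Ki67-negative nests and 10 of 19 against Ki67-positive nests. No called member changed sign. Gpr161, never called, did: against Ki67-negative nests to 0.13 with the length trend removed and to a positive value without vismodegib library 4 or 5 or Ki67-negative library 2 (range with 1 library left out -0.1166 to 0.073), and against Ki67-positive nests to 0.018 with the length trend removed.

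Calls that ended without 1 library were, against Ki67-negative nests, Cep164 (vismodegib 4, Ki67-negative 3 or 5), Ift172 (Ki67-negative 3), Ift88 (vismodegib 3, Ki67-negative 5), Mks1 (vismodegib 1, 2 or 3, Ki67-negative 1 or 3) and Tctn1 (10 of 15 libraries). Against Ki67-positive nests they were Ift80 (vismodegib 3 or 5, Ki67-positive 5), Tulp3 (vismodegib 1 or 5, Ki67-positive 1 or 2), and Bbs5, Bbs12, Cep164, Ift88 and Tctn1, whose adjusted p was 0.0444 to 0.0492 and whose call ended without 9 to 12 of the 15 libraries, 1 at a time. The Xist term ended those of Bbs5, Tctn1 and Tulp3 against Ki67-positive nests and of Mks1 and Tctn1 against Ki67-negative nests. The fibroblast term alone ended those of Ift74 and Kifap3 against Ki67-positive nests and of Tctn2 against Ki67-negative nests.

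Over all genes, the count lower in Ki67-negative nests was 30 and ran from 0 to 81 (81 with DESeq2, 15 with limma voom, 0 with only the groups compared, 0 without any 1 of Ki67-negative 3, 4, 5 and Ki67-positive 4, 2 without Ki67-positive library 5 and 12 without Ki67-negative library 2). No paired analysis was possible because the labels give no replicate numbers. Depth limits the low members: B9d2 had 13 to 61 counts per library.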
